A study of Mus musculus with 15 samples.

Results

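Aortas of mice infused with angiotensin II were set against aortas of Sham mice by RNA sequencing. The comparison holds the 5 libraries labelled AngII and the 5 labelled Sham, 10 of the 15 libraries of the series, and every gene that passed a filter on low values. The Sham libraries are the controls. The AngII group received angiotensin II at 750 ng/kg per minute, a dose given to make the mice hypertensive. The other 5 libraries came from mice that had the same infusion together with resolvin E1 (RvE1), a lipid mediator of the resolution of inflammation, injected intraperitoneally at 2 µg/kg per day. Their group means are given beside some values, and they share in the estimate of the spread. All mice are labelled wild type (WT). Age, sex, strain, length of infusion, hour of collection and the number of animals behind a library were not stated. Since the labels do not say whether each library is a separate animal, the p-values speak only for the spread among these samples, which may be technical.

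Angiotensin II is the effector peptide of the renin-angiotensin system. It contracts vascular smooth muscle through its type 1 receptor and makes the adrenal cortex release aldosterone, and its infusion in rodents is a standard way to raise blood pressure. The wall of the aorta holds an endothelium, a media of smooth muscle cells with elastic lamellae and an adventitia of fibroblasts and resident macrophages, and in mice it lies in fat with brown-like cells. Cells of the wall and of the fat also run a circadian clock, in which BMAL1 and its partners CLOCK or NPAS2 drive their own repressors.

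Values are treated as FPKM, expression scaled to transcript length and library size, and a difference is AngII minus Sham in log2(FPKM + 1) with its standard error (SE). Of 34714 genes in the table, 12603 reached 1 FPKM in 5 or more of the 15 libraries and were tested with limma. A gene is said to have risen or fallen where its Benjamini-Hochberg adjusted p lay under 0.05, and adjusted p below always means this one. The depth behind the values is unknown and they carry no counting intervals. Coordinates are those of the RefSeq annotation of GRCm38.p6 (mm10) and span the whole gene.

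The samples held markers of every layer of the vessel and of the fat around it, and the mixture differed between libraries. The smooth muscle genes Acta2 and Myh11, the endothelial genes Cdh5 and Pecam1 and the fat genes Adipoq and Ucp1 were above 0 in all 10 libraries. AngII libraries 3, 4 and 5 stood apart: Cd79a, a B cell receptor subunit, was at 409, 125 and 591 FPKM there, at 4.55 and 1.70 in AngII libraries 1 and 2, and between 1.36 and 18.7 in Sham. The summed FPKM of 6 B cell genes ran from 66.2 to 1464.9 in AngII and from 58.8 to 89.9 in Sham. That of 12 T and NK cell genes ran from 7.9 to 350.0 and from 3.6 to 45.8, and that of 20 macrophage genes from 212.4 to 3111.6 and from 204.7 to 281.2. The defining lymphocyte and macrophage markers were above 0 in all 10 libraries, except that Cd3d was at 0 in 1 Sham library. The summed level of 22 contractile smooth muscle genes ran from 2191.4 to 5906.2 in AngII and from 3023.1 to 19582.1 in Sham, so the groups overlapped, with Sham library 3 inside the AngII range. Heart muscle RNA varied within both groups, with Myh6 at 174 FPKM in AngII library 2 and 80.6 in Sham library 5 and at 0 in AngII library 3. The skeletal muscle actin Acta1 reached 549 FPKM in AngII library 4, and the mesothelial gene Msln was at 5.30 to 11.9 FPKM in Sham libraries 1, 2 and 4 and at or below 0.340 in the other 7. In bulk tissue, fewer cells of a type and less RNA per cell cannot be told apart.

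**Figure D1:**
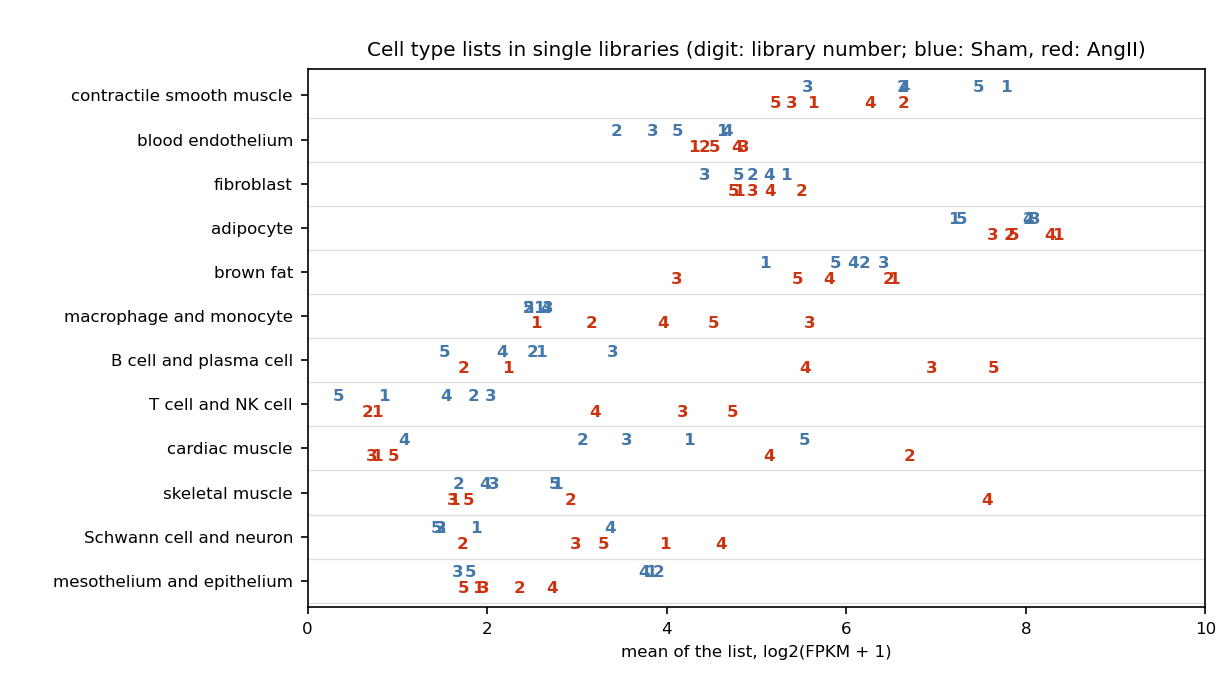
Mean of each cell type list in single libraries, in log2(FPKM + 1), with Sham libraries in blue and AngII libraries in red and each digit giving the library number. AngII libraries 3, 4 and 5 lie to the right of all others for the B cell, T cell and macrophage lists, and the smooth muscle list of Sham library 3 lies among the AngII values.

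In the comparison as a whole, 298 genes rose and 102 fell, 400 of 12603 or 3.17% (2.36% higher and 0.809% lower). The libraries of the groups did not overlap for 3.7% of all tested genes (2.92% higher in AngII and 0.778% lower). The median difference of all tested genes was 0.11. Scaling the libraries to a common median ratio shifted that median by 0.116, to -0.00, and turned the calls into 259 higher and 282 lower, so that 47.9% of calls were higher in place of 74.5%. Fitting the 10 libraries alone, without the AngII + RvE1 libraries, gave 30 higher and 7 lower.

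The number of calls rested on which libraries entered. With 1 library left out at a time, the number of higher genes ran from 54 (without AngII library 4) to 1378 (without AngII library 2) and that of lower genes from 16 (without AngII library 5) to 555 (without Sham library 3). Without AngII libraries 3, 4 and 5 together, 20 genes were higher and 2 lower, or 0.175% of those tested. There were 64 genes, 16% of the 400, that stayed past the threshold in each of the 15 fits with 1 library left out, 49 higher and 15 lower. Among these 64, 10 were circadian clock genes. The following account gives most room to the genes that held in this way, and says for the others where they did not.

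**Figure D2:**
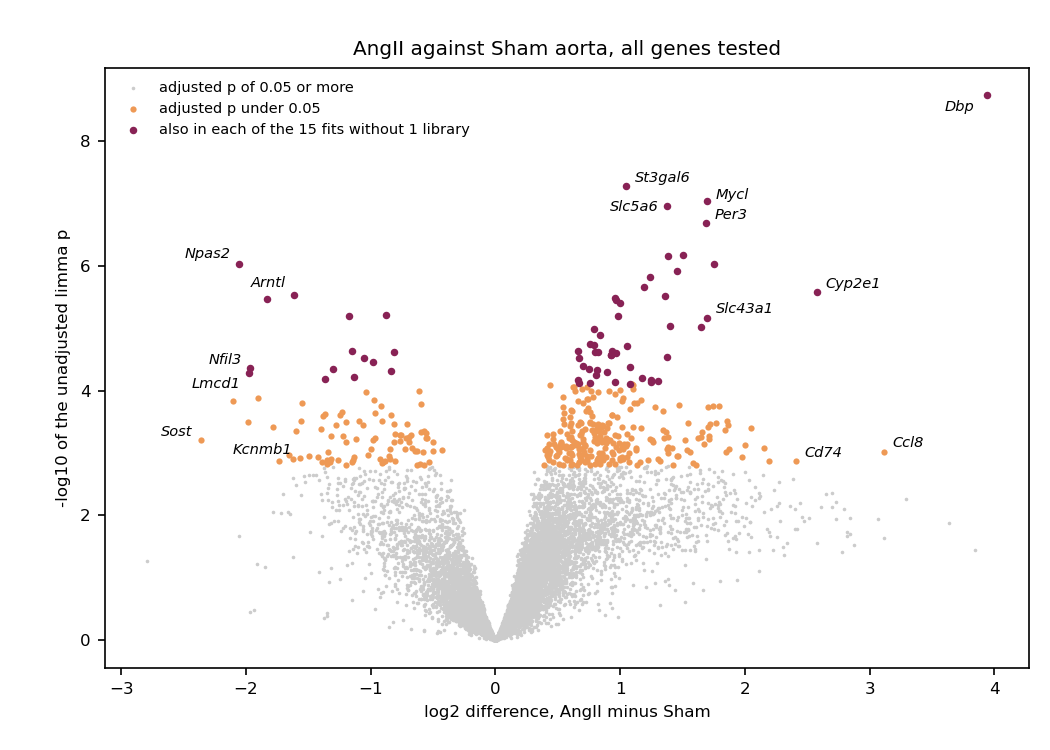
Difference between AngII and Sham against the unadjusted limma p on a -log10 scale for the 12603 genes tested, with the 400 called genes in orange or purple and the 64 that were called in each fit with 1 library left out in purple. Dbp stands apart at a difference of 3.94, and Ccl8, at 3.12, is among the called genes that did not hold in every such fit.

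**Figure D3:**
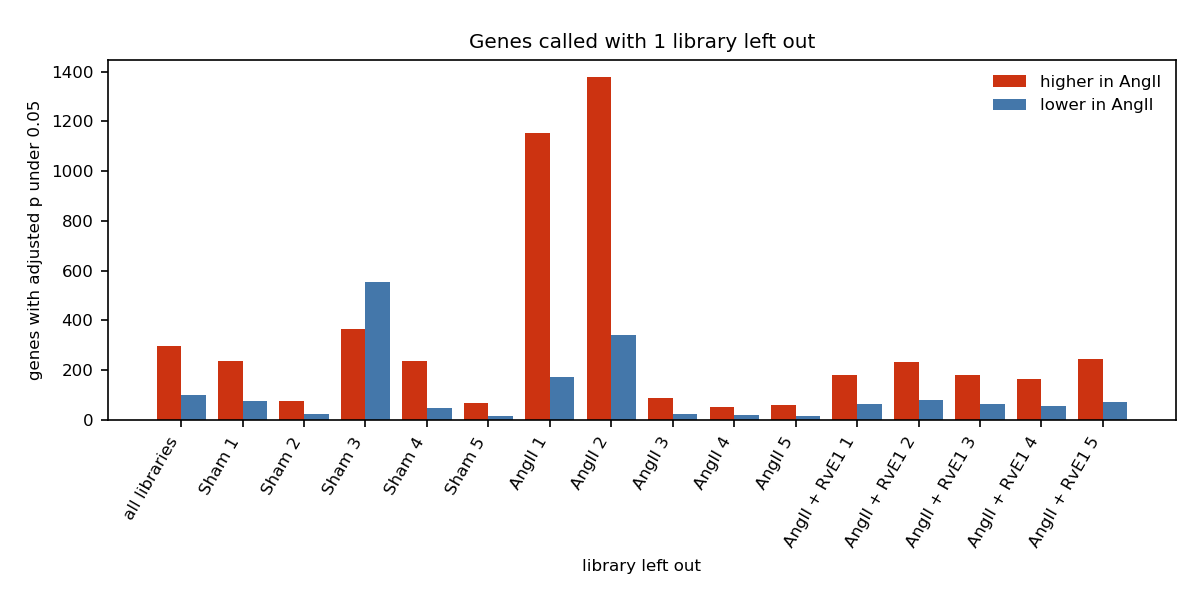
Number of genes higher (red) and lower (blue) in AngII with an adjusted p under 0.05 in the fit of all libraries and in the 15 fits that each left out the library named below the bars. Counts rise to 1155 and 1378 higher genes without AngII library 1 or 2 and drop to 90, 54 and 62 without AngII library 3, 4 or 5.

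Circadian clock genes differed between the groups in both directions. Levels of these genes follow the time of day, the hour at which each aorta was collected is not stated, and its part in the differences was not tested. Of 24 clock genes 8 rose and 4 fell, against 2.36% and 0.809% of all tested genes. For all 12 the AngII and Sham libraries did not overlap, against 3.7% of all tested genes. The activator side (Arntl, Npas2, Clock) was lower in AngII and its repressors and outputs (Per3, Cry2, Nr1d1, Nr1d2, Ciart, Bhlhe41, Dbp, Tef) were higher. For the clock genes the fit without AngII libraries 3, 4 and 5 gave 8 higher and 2 lower. These 8 were not the same genes as the 8 that rose with all libraries. The calls of Nr1d1 and Cry2 ended there (limma adjusted p = 0.0997 and 0.283), and clock genes not called with all libraries passed. The 2 lower genes were Arntl and Npas2.

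Upstream sequence is shown for 3 of these genes because BMAL1 with CLOCK or NPAS2 is known to bind E-boxes, DBP, TEF and NFIL3 to bind D-boxes, and the REV-ERB and ROR receptors to bind ROR elements. The stretches are from RefSeq on GRCm38.p6, 5′ to 3′ on the strand of the gene, before an annotated transcript start, with the matches in capitals. Ciart is shown over 200 bases at chr3:95882229-95882428 on the minus strand with the E-box CACGTG. Per3 is shown over 178 bases at chr4:151044708-151044885 on the minus strand with the D-box TTANGTAA, a stretch that leaves out the last 42 bases before the start. Nfil3 is shown over the 30 bases at chr13:52981040-52981069 on the minus strand with the ROR element TAGGTCA in its reverse complement. For all 3 the start used lies inside the span of the gene.
Ciart: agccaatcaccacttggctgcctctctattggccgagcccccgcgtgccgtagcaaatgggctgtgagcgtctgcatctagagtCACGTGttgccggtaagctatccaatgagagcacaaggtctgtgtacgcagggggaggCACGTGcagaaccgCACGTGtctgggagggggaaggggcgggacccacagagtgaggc
Per3: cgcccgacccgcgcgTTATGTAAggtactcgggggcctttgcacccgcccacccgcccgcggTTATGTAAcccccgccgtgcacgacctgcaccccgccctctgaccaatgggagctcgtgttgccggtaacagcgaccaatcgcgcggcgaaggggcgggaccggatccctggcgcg
Nfil3: tagcgcggcgctcggaacTGACCTActaac
The E-boxes of Ciart begin 116, 58 and 44 bases before the start and the D-boxes of Per3 205 and 158 bases before its start, counted over the bases left out. Both strands of windows from 250 bases before to 50 after each annotated start were searched, and a gene with several starts counted once. E-boxes were present for 3 of the 12 called clock genes (25%), D-boxes for 1 and ROR elements for 2. The shares over 10078 tested genes with a window were 11.6%, 1.77% and 2.32%. Over all 19 clock genes with a window, called or not, the elements were present for 5, 2 and 2. A match is a description of letters and not a shown binding site.

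Dbp (chr7:45705100-45710203), a transcription factor of the clock output, was at 6.68, 3.85, 3.83, 2.18 and 4.02 FPKM in Sham libraries 1 to 5. Its AngII values were 85.5, 107, 47.3, 110.0 and 48.2 FPKM. The lowest AngII library exceeded the highest Sham library by 2.65 on the log2 scale, the widest gap of any gene named here, and the AngII + RvE1 mean was 58.1 ± 21.9 FPKM (SD, n = 5). Across the fits with 1 library left out the difference ran from 3.79 to 4.10.

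Per3 (chr4:150997018-151044707), a period repressor, was between 1.27 and 2.97 FPKM in Sham and at 10.9, 12.8, 6.69, 11.5 and 8.06 in AngII. Ciart (chr3:95878500-95882257), a repressor of CLOCK and BMAL1, was at 0.624, 0.512, 0.599, 1.53 and 1.31 FPKM in Sham and at 5.82, 8.10, 3.56, 7.16 and 3.34 in AngII. In both genes, as in Dbp, AngII libraries 3 and 5 had the lowest AngII values, still above all of Sham. The differences without AngII libraries 3, 4 and 5 were 1.94 for Per3 (limma adjusted p = 0.00230) and 2.07 for Ciart (0.00230). Bhlhe41, which encodes the repressor DEC2, rose from 1.58 ± 0.373 to 4.95 ± 1.12 FPKM (SD, n = 5 each, 1.19, SE 0.16, limma adjusted p = 0.00227).

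Arntl (chr7:113178471-113314126), the gene of BMAL1, was at 9.04, 8.46, 6.58, 9.33 and 11.7 FPKM in Sham and at 1.63, 1.01, 3.76, 2.14 and 3.45 in AngII. Npas2 (chr1:39193702-39363240) was at 8.90, 5.92, 2.22, 6.20 and 5.94 FPKM in Sham and between 0.294 and 0.873 in AngII. Clock, the remaining activator, differed less (5.10 ± 1.16 and 3.10 ± 0.241 FPKM, SD, n = 5 each, -0.56, SE 0.13, limma adjusted p = 0.0335), and its call ended in 6 of the 15 fits with 1 library left out, with adjusted p up to 0.0802. Nfil3 (chr13:52967209-52982878), a repressor that binds the same sites as DBP, was between 18.4 and 40.7 FPKM in Sham and between 3.17 and 9.83 in AngII. Its call ended without AngII libraries 3, 4 and 5 (-1.38, limma adjusted p = 0.385).

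Some clock genes did not pass the test or passed it narrowly. Per1 was at 13.4 FPKM in Sham and 17.4 in AngII (group means, difference 0.53, limma adjusted p = 0.437), and Per2 at 5.63 and 7.57 (0.44, 0.456). Cry1 was at 4.39 and 3.13 FPKM (-0.40, limma adjusted p = 0.135), while Cry2 rose by 0.56 (0.0376), a call that ended in 9 of the 15 fits with 1 library left out (adjusted p up to 0.0949). The kinase genes Csnk1d and Csnk1e differed by 0.24 and 0.01 (limma adjusted p = 0.296 and 0.966). Nr1d1, by contrast, rose by 1.65 (limma adjusted p = 0.0048) and held in each fit with 1 library left out (adjusted p up to 0.016). It was nearly as high in AngII + RvE1 (94.3 ± 18 FPKM, SD, n = 5) as in AngII (92.6 ± 28.0), against 29.7 ± 13.3 in Sham.

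**Figure D4:**
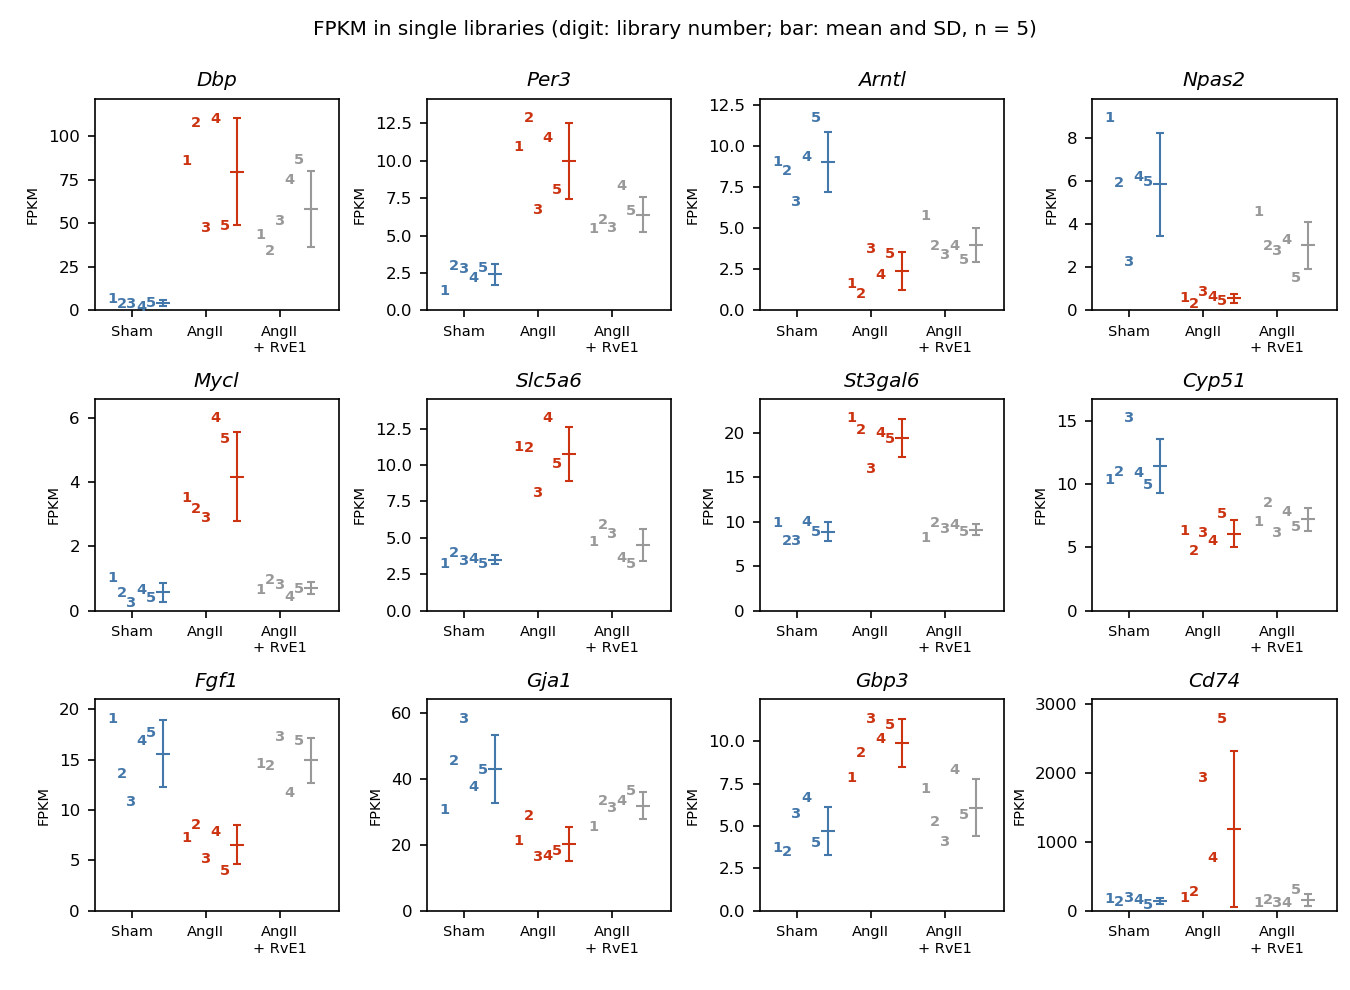
FPKM of 12 genes in single libraries of Sham (blue), AngII (red) and AngII + RvE1 (grey), with digits for library numbers and bars for the mean and SD of 5 libraries, on axes that start at 0. The AngII and Sham libraries do not overlap for any of the 12 genes, and for Cd74 the AngII spread comes from libraries 3, 4 and 5.

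Outside the clock, the 3 genes with the smallest limma p-values had AngII and Sham libraries that did not overlap. St3gal6 (chr16:58469742-58524260), a sialyltransferase of glycoprotein and glycolipid chains, was at 9.89, 7.79, 7.87, 9.92 and 8.88 FPKM in Sham and at 21.6, 20.4, 15.9, 19.9 and 19.3 in AngII (1.05, SE 0.11, limma adjusted p = 0.000332). Slc5a6 (chr5:31036036-31048924), the sodium-dependent carrier of biotin and pantothenate, was at 3.23, 3.98, 3.43, 3.55 and 3.22 FPKM in Sham and at 11.3, 11.1, 8.07, 13.2 and 10.1 in AngII (1.38, SE 0.15, 0.000349). Mycl (chr4:122995588-123002490), a MYC family transcription factor, was at or below 1.01 FPKM in all Sham libraries and at 3.50, 3.18, 2.88, 5.99 and 5.33 in AngII (1.70, SE 0.18, 0.000349). The AngII + RvE1 means of these genes were near those of Sham, at 9.12 ± 0.648, 4.53 ± 1.1 and 0.701 ± 0.193 FPKM (SD, n = 5), where Sham was at 8.87 ± 1.04, 3.48 ± 0.310 and 0.569 ± 0.289. For each of them the fit of the 10 libraries alone and the fit without AngII libraries 3, 4 and 5 kept the call.

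Further genes rose without overlap between the groups. Ung, the uracil-DNA glycosylase of base excision repair, was between 0.817 and 1.75 FPKM in Sham and between 3.83 and 6.20 in AngII (1.24, SE 0.16, limma adjusted p = 0.00173). Its call ended without AngII libraries 3, 4 and 5 (1.16, limma adjusted p = 0.0568). Ralgds, an exchange factor that links RAS to RAL GTPases, rose from 6.05 ± 1.47 to 19.3 ± 5.73 FPKM (SD, n = 5 each, 1.5, SE 0.18, limma adjusted p = 0.00126). Bcat2, the mitochondrial aminotransferase of branched-chain amino acids, was at 34.6 to 45.2 FPKM in Sham and at 93.7, 72.8, 81.7, 96.0 and 63.2 in AngII (1.0, SE 0.14, limma adjusted p = 0.00264). AngII libraries 4 and 1 were the highest for Bcat2, and library 3 was the highest for Ralgds at 28.0 FPKM.

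Ivns1abp, which encodes a kelch protein bound by an influenza protein, was at 15, 24.7, 31.5, 23.4 and 25.1 FPKM in Sham and at 84.9, 72.2, 50.4, 63.4 and 51.3 in AngII (1.40, SE 0.21, limma adjusted p = 0.00480). Fbxo21 and Fbxo31, subunits of ubiquitin ligases, rose from 15.1 ± 3.26 to 34.1 ± 9.96 FPKM and from 10.9 ± 1.93 to 23.7 ± 6.80 FPKM (SD, n = 5 each, limma adjusted p = 0.0165 and 0.0196). All 3 were among the 16 called genes that kept their direction and call without AngII libraries 3, 4 and 5. Leaving out Sham library 5 or AngII library 4 ended the calls of the 2 F-box genes (adjusted p up to 0.0511 and 0.0576). Dhx32, a putative RNA helicase, fell from 16.4 ± 2.50 to 8.39 ± 0.818 FPKM (SD, n = 5 each, -0.88, SE 0.13, limma adjusted p = 0.00363), and its AngII libraries lay between 7.21 and 9.30. The Dhx32 call ended without AngII libraries 3, 4 and 5 (-0.76, limma adjusted p = 0.170).

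Genes of cell division gave 1 call. Of 18 cell cycle genes 1 rose, Ccne1, the cyclin that starts DNA replication with CDK2, against 2.36% of all tested genes. At an unadjusted limma p under 0.05, 12 of the 18 were higher and 1 lower, and the higher calls ran from 1 to 11 with 1 library left out, 11 without AngII library 1. Ccne1 was between 0.283 and 0.871 FPKM in Sham and at 1.74, 1.29, 3.11, 1.68 and 3.81 in AngII (1.08, SE 0.20, limma adjusted p = 0.0152). Its partner Cdk2, chosen for mention after its values were seen, rose from 5.59 ± 0.812 to 10.8 ± 2.79 FPKM (SD, n = 5 each, 0.82, limma adjusted p = 0.0118). In both genes AngII libraries 3 and 5 were the highest. The list median of 0.74 fell to -0.05 without AngII libraries 3, 4 and 5, where the Ccne1 difference was 0.73 (limma adjusted p = 0.297).

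Carriers of amino acids and enzymes of serine synthesis rose. Of 17 genes of amino acid transport and of the amino acid response driven by ATF4, 4 rose and 0 fell (2.36% and 0.809% of all tested genes), and at an unadjusted limma p under 0.05 the counts were 8 and 0. Slc7a8, a carrier of neutral amino acids, was at 2.45, 1.27, 0.789, 2.44 and 0.489 FPKM in Sham and at 10.4, 2.92, 15.7, 7.38 and 4.75 in AngII. Slc7a10, a carrier of small neutral amino acids such as serine that fat cells express, rose from 3.36 ± 1.75 to 13.6 ± 6.30 FPKM (SD, n = 5 each, 1.71, SE 0.39, limma adjusted p = 0.0342). Phgdh and Psat1, successive enzymes of serine synthesis, rose from 11.4 ± 5.33 to 32.1 ± 14.2 and from 3.73 ± 1.66 to 11.9 ± 6.62 FPKM (SD, n = 5 each, limma adjusted p = 0.0343 and 0.0456). For both enzymes AngII libraries 1 and 2 lay inside the Sham range and libraries 3, 4 and 5 above it.

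These 4 calls were near the threshold. Each ended without Sham library 2, Sham library 5 or AngII library 4, with adjusted p up to 0.0683 for Slc7a8 and 0.124 for Psat1. Genes of the same ATF4 response that are known to rise under amino acid shortage were not called, with Asns at 0.15 (limma adjusted p = 0.724), Trib3 at 0.33 (0.391) and Chac1 at 0.38 (0.249).

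The next carriers are outside that list and were named for their wide gaps between the groups. Slc43a1 (chr2:84838855-84863586), a carrier of large neutral amino acids, was at 4.61, 2.66, 1.12, 4.17 and 2.72 FPKM in Sham and at 7.94, 8.69, 14.9, 13.8 and 13.9 in AngII (1.70, SE 0.25, limma adjusted p = 0.00367). Slc1a3 (chr15:8634124-8710807), a glutamate and aspartate carrier, was at 8.75, 12.9, 9.90, 12.5 and 8.64 FPKM in Sham and at 27.3, 24.2, 22.2, 30.2 and 26.9 in AngII (1.25, SE 0.23, 0.0151). The groups did not overlap for either gene, and the largest adjusted p with 1 library left out was 0.0155 and 0.0492. Without AngII libraries 3, 4 and 5 both calls ended (limma adjusted p = 0.217 and 0.283). With the mean of lymphocyte genes as a covariate the Slc1a3 call ended (limma adjusted p = 0.0753) and the Slc43a1 call did not (0.033). The AngII + RvE1 means were 4.32 ± 1.07 and 8.80 ± 3.96 FPKM (SD, n = 5).

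Cholesterol synthesis genes were lower in AngII in most cases. Of 20 genes of the pathway 2 fell and 0 rose (0.809% and 2.36% of all tested genes), and at an unadjusted limma p under 0.05 the counts were 12 and 0. Differences were negative for 17 of the 20, with a median of -0.63 against 0.11 for all tested genes, and for 5 of the 20 all AngII libraries lay below all Sham libraries (0.778% of all tested genes). The median was -0.68 without AngII libraries 3, 4 and 5, and rescaling the libraries gave -0.75.

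Cyp51 (chr5:4080674-4104697), the lanosterol demethylase, was at 10.3, 10.9, 15.2, 10.9 and 9.92 FPKM in Sham and at 6.31, 4.74, 6.15, 5.53 and 7.61 in AngII (-0.81, SE 0.14, limma adjusted p = 0.00845). Sqle, the squalene epoxidase, was between 7.41 and 10.6 FPKM in Sham and between 2.64 and 5.96 in AngII (-0.84, SE 0.21, 0.0452). Both groups of values stood apart, yet only Cyp51 held in each fit with 1 library left out, while the Sqle call ended in 11 of 15 (adjusted p up to 0.0953, for example without each single Sham library). The Cyp51 call ended in the fit of the 10 libraries alone (limma adjusted p = 0.0568). Other steps gave values in the same direction without passing the test: Hmgcs1 -0.77 (limma adjusted p = 0.0816), Fdps -0.79 (0.0557), Idi1 -0.65 (0.0825), Msmo1 -0.60 (0.0582), Sc5d -1.05 (0.0610) and Insig1 -1.09 (0.0987).

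Genes of apolipoproteins and of cholesterol efflux had positive differences in 11 of 14 cases. Of the 14, 2 rose and 0 fell (2.36% and 0.809% of all tested genes), with 6 and 0 at an unadjusted limma p under 0.05. Scarb1, the HDL receptor SR-B1, was at 26.7, 20.4, 20.3, 27.6 and 21.7 FPKM in Sham and at 47.9, 40.6, 59.2, 44.6 and 40.4 in AngII (0.96, SE 0.14, limma adjusted p = 0.00249). Apoe was at 676, 505, 411, 591 and 385 FPKM in Sham and at 875, 968, 2974, 1422 and 1472 in AngII (1.47, SE 0.30, 0.0223). Scarb1 held in each fit with 1 library left out, whereas the Apoe call ended without Sham library 2, Sham library 5, AngII library 4 or AngII library 5 (adjusted p up to 0.0683). Without AngII libraries 3, 4 and 5 together the calls of Scarb1 and Apoe both ended (limma adjusted p = 0.0678 and 0.380). Apoe is also a gene of macrophages, whose markers were high in AngII libraries 3, 4 and 5, and their part in its difference was not tested. The cholesterol exporters Abca1 and Abcg1 were at 0.71 and 1.19 (limma adjusted p = 0.0688 and 0.0614).

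Of 22 genes of fatty acid and triglyceride synthesis 2 fell and 0 rose (0.809% and 2.36% of all tested genes), and the counts at an unadjusted limma p under 0.05 were 4 and 1. Scd2, a stearoyl-CoA desaturase, was at 32.5, 87.9, 72.5, 100 and 42.1 FPKM in Sham and at 19.9, 10.2, 24.3, 27.7 and 24.0 in AngII, without overlap. Elovl5, an elongase of polyunsaturated fatty acids, fell from 52.5 ± 11.7 to 33.1 ± 3.64 FPKM (SD, n = 5 each, -0.63, SE 0.16, limma adjusted p = 0.0496). The Scd2 call ended without Sham library 2 or 4 or AngII library 3, 4 or 5 (adjusted p up to 0.0732), and the Elovl5 call in 10 of 15 such fits (up to 0.123). The main enzymes of the pathway were not called, with Fasn at -1.0 (limma adjusted p = 0.250), Acly at -1.72 (0.0913) and Scd1 at -1.19 (0.213). Summed adipocyte marker levels overlapped between the groups, from 16628.8 to 26687.1 FPKM in AngII and from 12081.1 to 26485.1 in Sham.

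Other genes that are known from fat cells were named by their size of change or after their values were seen. Of 22 fatty acid oxidation genes limma called 0, against 3.17% of all tested genes. At an unadjusted limma p under 0.05, 3 were higher and 0 lower. Cyp2e1 was at 374, 192, 83.3, 201 and 115 FPKM in Sham and at 766, 736, 1172, 1479.9 and 1106 in AngII. Its 5 AngII values exceeded all Sham values, the difference held in each fit with 1 library left out (adjusted p up to 0.0106), and the AngII + RvE1 mean of 191 ± 61.7 FPKM (SD, n = 5) was close to the Sham mean of 193 ± 113. Slc27a1, a fatty acid transport protein chosen for mention after its values were seen, was at 42.1, 47.2, 33.9, 53.9 and 34.2 FPKM in Sham and at 102, 74.5, 112, 165 and 111 in AngII (1.37, SE 0.23, limma adjusted p = 0.00902). Gpat3, an acyltransferase of triglyceride synthesis, and Nnmt, a nicotinamide methyltransferase abundant in fat, were chosen in the same way. Gpat3 rose from 3.73 ± 1.75 to 10.3 ± 2.20 FPKM and Nnmt from 31.7 ± 11.3 to 70.0 ± 8.11 FPKM (SD, n = 5 each, limma adjusted p = 0.0149 and 0.0141). The calls of Gpat3 and Nnmt ended in the fit of the 10 libraries alone (limma adjusted p = 0.0539 and 0.0549). Without AngII libraries 3, 4 and 5 the calls of Cyp2e1, Slc27a1, Gpat3 and Nnmt ended (limma adjusted p = 0.138, 0.298, 0.424 and 0.223). Rbp4, the plasma carrier of retinol that fat cells also secrete, fell from 151 ± 26.6 to 83.0 ± 12.7 FPKM (SD, n = 5 each, -0.85, SE 0.20, limma adjusted p = 0.0384). The Rbp4 call ended in 8 of the 15 fits with 1 library left out (adjusted p up to 0.0988).

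Of 11 genes of the renin-angiotensin system itself limma called 0, against 3.17% of all tested genes. At an unadjusted limma p under 0.05, 4 were higher and 1 lower. Agt, angiotensinogen, was at 2.53, 0.361, 0.320, 1.78 and 0.623 FPKM in Sham and at 1.34, 1.72, 14.0, 8.80 and 7.38 in AngII (1.62, SE 0.46, limma adjusted p = 0.0625). The AngII values of libraries 1 and 2 lay inside the Sham range, and without libraries 3, 4 and 5 the difference was 0.37. Agtr1a, the type 1 receptor gene, was between 1.54 and 3.24 FPKM in Sham and between 3.45 and 6.07 in AngII (limma adjusted p = 0.0785). Its AngII libraries all lay above Sham, as did those of 2.92% of all tested genes. Ace, the converting enzyme, was between 12.2 and 44.5 FPKM in Sham and between 16.5 and 56.6 in AngII (-0.21, SE 0.35, limma adjusted p = 0.730). Agtr1b did not pass the filter and was not tested. Edn1 and its receptor gene Ednra differed by -0.12 and 0.38 (limma adjusted p = 0.837 and 0.312).

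Growth factor and junction genes were among those that fell. Fgf1 (chr18:38838672-38929470), an acidic fibroblast growth factor, was at 19.1, 13.6, 10.8, 16.8 and 17.6 FPKM in Sham and at 7.27, 8.56, 5.18, 7.77 and 3.94 in AngII (-1.15, SE 0.19, limma adjusted p = 0.00845). Fgfr2, a receptor for fibroblast growth factors, was at 16.3, 7.70, 5.34, 6.90 and 14.8 FPKM in Sham and between 2.70 and 4.76 in AngII (-1.23, SE 0.26, 0.0248). Gja1 (chr10:56377300-56390419), the gap junction protein connexin 43, was at 30.5, 45.4, 58.2, 37.4 and 42.8 FPKM in Sham and at 21.0, 28.7, 16.2, 16.6 and 18 in AngII (-1.05, SE 0.18, 0.00906). None of the 3 overlapped between groups. Fgf1 and Gja1 held in each fit with 1 library left out, while Fgfr2 did not hold without Sham library 5 or AngII library 3, 4 or 5 (adjusted p up to 0.0746). In the fit of the 10 libraries alone the calls of Fgf1 and Gja1 ended (limma adjusted p = 0.0561 and 0.0612). AngII + RvE1 means were 14.9 ± 2.24 FPKM for Fgf1, 11.5 ± 2.40 for Fgfr2 and 31.8 ± 4.04 for Gja1 (SD, n = 5), against Sham means of 15.6 ± 3.32, 10.2 ± 4.99 and 42.9 ± 10.3.

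Rasl12, a RAS-like GTPase gene, fell from 108 ± 23.5 to 45.1 ± 16.5 FPKM (SD, n = 5 each, -1.30, SE 0.23, limma adjusted p = 0.0118), with Sham between 76.7 and 136 and AngII between 25.5 and 61.9. Napepld, the phospholipase that makes N-acylethanolamines such as anandamide, fell from 12.5 ± 4.70 to 4.90 ± 0.937 FPKM (SD, n = 5 each, -1.14, SE 0.21, 0.0138). Both held in each fit with 1 library left out and not in the fit of the 10 libraries alone (limma adjusted p = 0.0773 and 0.0767). In the other direction Cntfr, the receptor subunit for ciliary neurotrophic factor, was at 6.81, 4.13, 0.736, 4.71 and 5.85 FPKM in Sham and at 24.7, 17.7, 8.25, 21.9 and 11.2 in AngII. It rose by 1.77 (SE 0.38, limma adjusted p = 0.0300), and AngII libraries 1, 2 and 4 were its highest. The Cntfr call ended without Sham library 2, Sham library 5, AngII library 4 or AngII library 5 (adjusted p up to 0.0755). The summed level of Schwann cell and neuron genes ran from 138.6 to 778.7 FPKM in AngII and from 101.6 to 297.2 in Sham, and their part in the Cntfr difference was not tested.

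Contractile smooth muscle genes were lower in AngII but seldom past the test. Of 22 genes 3 fell and 0 rose (0.809% and 2.36% of all tested genes), with 14 and 0 at an unadjusted limma p under 0.05, and 21 of the 22 differences were negative. The number that fell ranged from 0 to 15 with 1 library left out, 15 without Sham library 3, and was 0 without AngII libraries 3, 4 and 5 (2 at an unadjusted limma p under 0.05), where the median was -0.83 against -1.11 with all libraries.

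Sham libraries differed widely among themselves here. Myocd, the coactivator of serum response factor that drives the contractile genes, was at 16.5, 4.85, 2.69, 9.46 and 20.7 FPKM in Sham and at 1.73, 4.28, 1.58, 3.11 and 0.998 in AngII. Itga8, an integrin chain of smooth muscle, was at 177, 113, 35.0, 86.0 and 234 FPKM in Sham and at 30.4, 70.6, 24.9, 35.3 and 16.3 in AngII. In both, AngII library 2 exceeded Sham library 3. The same held for Tagln (transgelin) at 1121 FPKM in AngII library 2 and 559 in Sham library 3, with group means of 702 ± 269.8 and 1877 ± 1310.4 FPKM (SD, n = 5 each, -1.21, SE 0.44, limma adjusted p = 0.110). The AngII + RvE1 mean of Tagln was 2545 ± 684 FPKM.

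Myh10, a nonmuscle myosin heavy chain of the synthetic state, fell with them (24.6 ± 10.9 and 8.43 ± 3.55 FPKM, SD, n = 5 each, -1.40, SE 0.31, limma adjusted p = 0.0318). Lmcd1, a LIM domain protein of muscle, did not overlap between the groups, at 184, 84.9, 42.6, 63.7 and 155 FPKM in Sham and at 24.6, 38.9, 17.2, 27.2 and 13.1 in AngII. It held in each fit with 1 library left out (adjusted p up to 0.0415) but not in the fit of the 10 libraries alone (0.0773). Among 20 potassium and calcium channel genes 1 fell and 0 rose, with 7 and 2 at an unadjusted limma p under 0.05, and among 11 genes of nitric oxide and cyclic GMP 1 fell and 0 rose, with 6 and 0. Of all tested genes 0.809% fell and 2.36% rose. The genes were Kcnmb1, a subunit of the large-conductance potassium channel, and Gucy1b1, a chain of soluble guanylate cyclase.

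Matrix genes gave few calls. Of 29 genes of collagens and their processing 0 were called by limma, with 1 higher and 3 lower at an unadjusted p under 0.05, and of 15 elastic fiber genes 0 were called, with 0 and 4. Eln, tropoelastin, was at 679, 412, 92.4, 299.8 and 571 FPKM in Sham and at 123, 386, 380.2, 159.5 and 103 in AngII (-0.78, SE 0.55, limma adjusted p = 0.387). Col1a1 was between 28.0 and 164 FPKM in Sham and between 51.6 and 204 in AngII. AngII libraries 2 and 3 were the highest of that group for both genes, and the groups overlapped. Among 25 proteoglycan and matricellular genes 2 fell and 0 rose (0.809% and 2.36% of all tested genes), Ogn and Prelp, the latter a leucine-rich proteoglycan at 154 ± 36.3 FPKM in Sham and 78.5 ± 29.9 in AngII (SD, n = 5 each, -1.02, SE 0.25, limma adjusted p = 0.0429).

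Other genes of growth and matrix turnover were also mostly not called. Ccn2, connective tissue growth factor, was at 846, 303, 109.6, 202 and 669 FPKM in Sham and at 92.7, 315, 96.6, 57.0 and 71.5 in AngII (-1.66, SE 0.55, limma adjusted p = 0.0903). Thbs1, thrombospondin 1, differed by -0.07 (limma adjusted p = 0.949). Spp1, osteopontin, was at 300.4 FPKM in AngII library 3 and between 0.962 and 5.77 in the other AngII libraries (1.80, SE 1.07, limma adjusted p = 0.299). Of 24 TGF-beta and BMP genes 1 rose and 0 fell (2.36% and 0.809% of all tested genes). The gene was Bmper, a secreted regulator of bone morphogenetic proteins. It was between 0.894 and 1.38 FPKM in Sham and between 2.06 and 4.18 in AngII (0.76, SE 0.14, limma adjusted p = 0.0151). Bmper held in each fit with 1 library left out (adjusted p up to 0.0492). Its call ended in the fit of the 10 libraries alone (limma adjusted p = 0.0784) and without AngII libraries 3, 4 and 5 (0.161). It also ended with the mean of lymphocyte genes as a covariate (0.0872).

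The 8 called smooth muscle and matrix genes Kcnmb1, Myocd, Itga8, Myh10, Gucy1b1, Prelp, Ogn and Sost lost their calls without Sham library 1, 2 or 5 or AngII library 3, 4 or 5. Their largest adjusted p in those fits lay between 0.0851 and 0.126.

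Interferon genes rose in AngII. Of 26 interferon response genes 10 rose and 0 fell, and of 15 GTPases induced by interferon gamma 6 rose and 0 fell (2.36% and 0.809% of all tested genes). These GTPases, of the GBP and IRG families, attack the membranes around microbes inside cells. Members of both families lie in clusters of close copies, so reads may have been divided between them.

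Upstream sequence of 5 of the 6 called GTPases is shown because all 5 with a window hold the interferon-stimulated response element (GAAA, any 2 bases, then GAAA), against 3.64% of 10078 tested genes, on 1 strand or the other. The 80 bases before the start are given 5′ to 3′ on the strand of the gene from RefSeq GRCm38.p6, with the matches in capitals, in the reverse complement for Gbp3 and Gbp7 and overlapping in Gbp3 and Irgm1. They are chr3:142559964-142560043 for Gbp3, chr3:142530256-142530335 for Gbp7, chr11:48871421-48871500 (minus strand) for Irgm1, chr11:58214897-58214976 for Irgm2 and chr11:58199476-58199555 for Igtp. The start used for Gbp3 lies inside the span of the gene.
Gbp3: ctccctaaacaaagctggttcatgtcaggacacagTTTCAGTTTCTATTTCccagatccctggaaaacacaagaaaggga
Gbp7: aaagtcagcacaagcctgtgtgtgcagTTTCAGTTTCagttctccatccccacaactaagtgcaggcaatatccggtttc
Irgm1: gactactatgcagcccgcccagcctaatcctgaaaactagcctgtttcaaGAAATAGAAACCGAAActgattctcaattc
Irgm2: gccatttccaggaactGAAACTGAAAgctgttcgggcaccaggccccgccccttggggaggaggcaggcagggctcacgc
Igtp: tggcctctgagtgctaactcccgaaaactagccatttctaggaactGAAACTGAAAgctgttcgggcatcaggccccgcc
Irgm2 and Igtp, neighbours on chromosome 11, share a run of 29 bases around the element. Over all 10 GTPase genes with a window the element was present in 9, called or not, and among the interferon response list in 10 of 18.

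Gbp3 was at 3.69, 3.50, 5.73, 6.66 and 3.99 FPKM in Sham and at 7.82, 9.33, 11.3, 10.1 and 11 in AngII. Igtp was at 11.7, 8.50, 8.14, 13.2 and 6.11 FPKM in Sham and at 16.5, 20.1, 23.5, 22.3 and 28.8 in AngII (1.16, SE 0.26, limma adjusted p = 0.0309). Irgm1 was between 5.69 and 9.68 FPKM in Sham and at 10.8, 11.4, 21.1, 15.1 and 23.6 in AngII (0.98, SE 0.22, 0.0343). No AngII library overlapped Sham for these 3, AngII libraries 1 and 2 included. Of the 15 GTPases 7 had all AngII libraries above all Sham libraries, against 2.92% of all tested genes.

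Without AngII libraries 3, 4 and 5 the calls were 0 in both lists by limma, with 7 of 26 and 7 of 15 higher at an unadjusted p under 0.05. The medians then were 0.38 for the interferon response and 0.645 for the GTPases, against 0.89 and 0.98 with all libraries and 0.01 for all tested genes. With the mean of lymphocyte genes as a covariate the calls were also 0 in both lists, with 16 and 14 higher at an unadjusted p under 0.05. Il15, a cytokine for NK and memory T cells that interferons induce, was chosen for mention after its values were seen. It was between 1.67 and 3.40 FPKM in Sham and between 4.52 and 5.96 in AngII (0.92, SE 0.16, limma adjusted p = 0.00872), was highest in AngII library 2, and kept its call with the covariate (0.96, limma adjusted p = 0.0335) but not without AngII libraries 3, 4 and 5 (1.02, limma adjusted p = 0.119).

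Genes of antigen presentation rose in the same libraries. Of 7 MHC class II genes 4 rose and 0 fell, and of 16 genes of MHC class I and peptide loading 7 rose and 0 fell (2.36% and 0.809% of all tested genes). H2-Eb1, a class II beta chain, was at 34.5, 26.5, 44.2, 28.9 and 16.5 FPKM in Sham and at 41.2, 58.2, 289, 137 and 404 in AngII (2.16, SE 0.52, limma adjusted p = 0.0384). Psmb9, an immunoproteasome subunit, was at 17.5, 9.74, 16.7, 12.9 and 6.83 FPKM in Sham and at 19.7, 19.1, 64.1, 36.2 and 73.5 in AngII (1.52, SE 0.35, 0.0348). For these genes AngII libraries 1 and 2 lay in or just above the Sham range, and libraries 3, 4 and 5 well above it. Close copies among the H2 genes may share reads. Without AngII libraries 3, 4 and 5 the class II median went from 2.16 to 0.63 and the class I median from 1.23 to 0.41, with 0 calls in each by limma and 1 and 2 members higher at an unadjusted p under 0.05.

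Complement and macrophage genes rose as well. Of 19 complement genes 5 rose and 0 fell, and of 20 macrophage genes 3 rose and 0 fell (2.36% and 0.809% of all tested genes). At an unadjusted limma p under 0.05, 11 and 19 were higher and 0 lower, and the macrophage calls ran from 0 to 17 with 1 library left out, 17 without AngII library 1. Cd68, a lysosomal protein of macrophages, was at 8.13, 16.4, 169, 24.6 and 42.4 FPKM in AngII and between 5.01 and 8.82 in Sham. Ccl8 was at 3.35, 11.9, 147, 50.4 and 123 FPKM in AngII and between 1.05 and 7.50 in Sham, so AngII library 1 lay inside the Sham range. The macrophage list median went from 1.16 to 0.35 without AngII libraries 3, 4 and 5, with 0 calls by limma and 6 members higher at an unadjusted p under 0.05.

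B cell genes (0 of 6 called by limma, 5 higher at an unadjusted p under 0.05) and T and NK cell genes (0 of 12, 5 higher) had medians of 2.84 and 1.39, which turned to -0.36 and -0.66 without AngII libraries 3, 4 and 5. Among all tested genes 3.17% were called. Of the calls in interferon response and antigen presentation, the 15 examined singly all lost their calls without Sham library 2, Sham library 5, AngII library 4 or AngII library 5, and 13 of them without AngII library 3, with largest adjusted p between 0.0573 and 0.118. The 9 examined in complement, macrophages and leukocytes lost theirs without Sham library 2 or 5 or AngII library 3, 4 or 5 (largest adjusted p between 0.0830 and 0.124). Whether this mixture or a response within cells gave the differences was not tested.

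**Figure D5:**
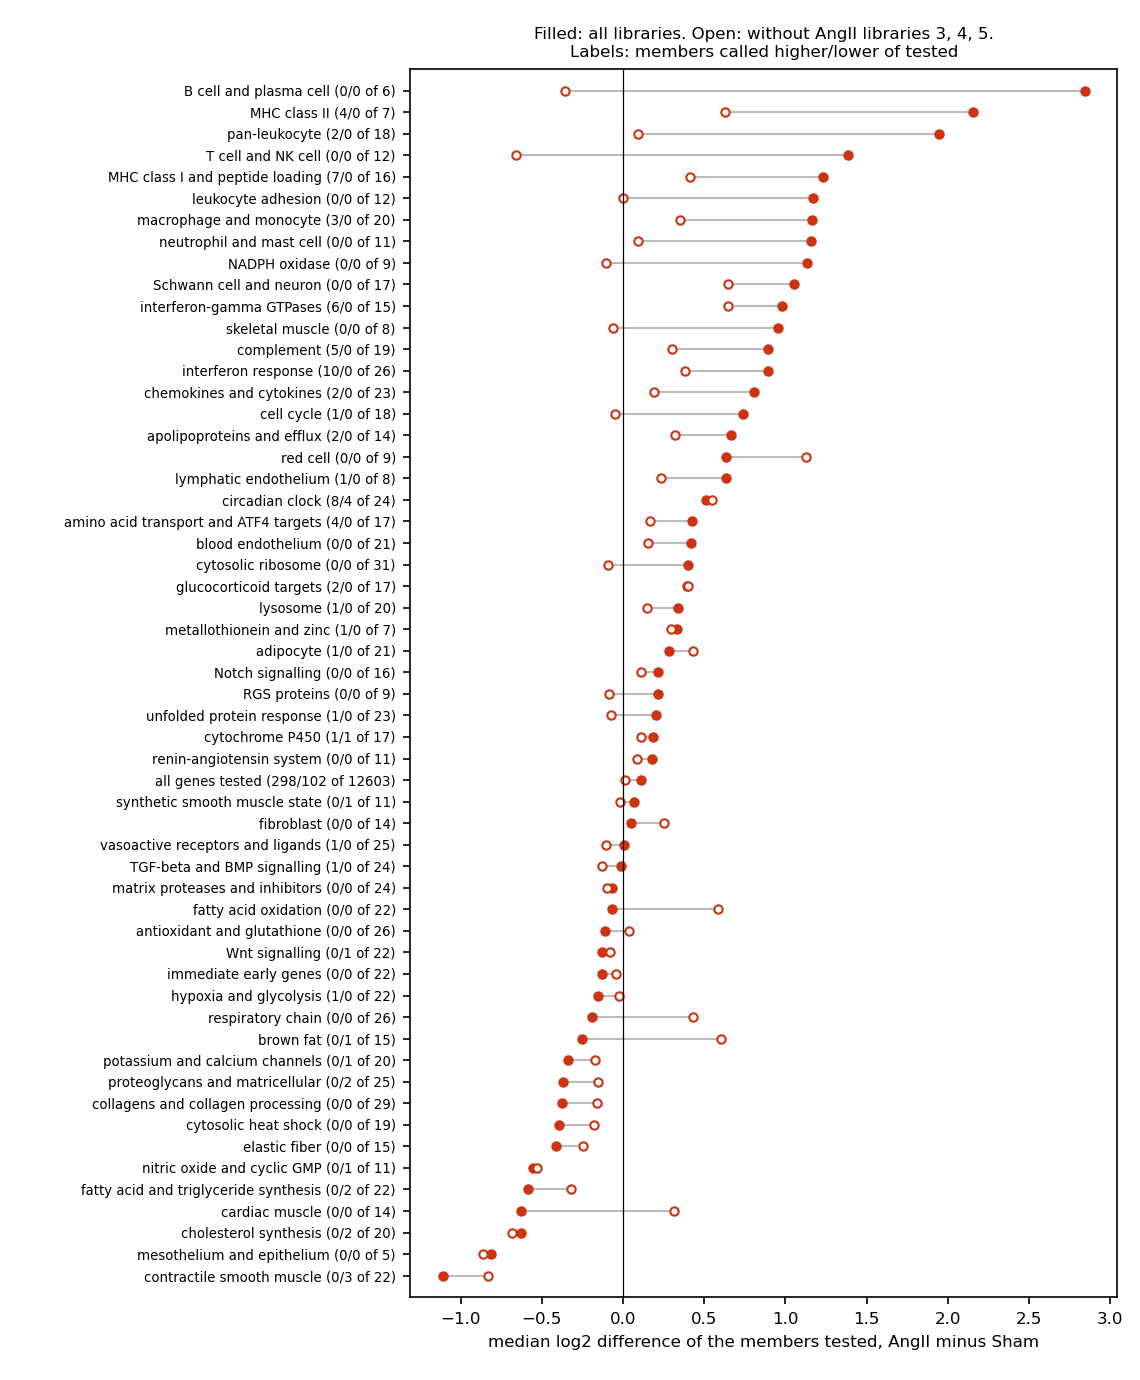
Median log2 difference between AngII and Sham over the tested members of 55 gene lists and over all 12603 genes, with all libraries (filled points) and without AngII libraries 3, 4 and 5 (open points), and counts of higher and lower calls of members tested in the labels. The clock, nitric oxide and cholesterol lists move little between the fits, while the lymphocyte, respiratory chain and brown fat medians change sign.

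Of the 55 lists, 31 held at least 1 called gene and 24 held none. The remaining calls were scattered. Mt3, a metallothionein, rose from 1.64 ± 1.01 to 9.23 ± 5.79 FPKM (SD, n = 5 each, limma adjusted p = 0.0300), and its AngII libraries 1 and 4 were highest at 14.2 and 16.6 FPKM. Fkbp5, a glucocorticoid target, rose from 5.72 ± 3.40 to 15.8 ± 7.37 FPKM (SD, n = 5 each, 1.42, SE 0.37, limma adjusted p = 0.0491), while the glucocorticoid targets Tsc22d3 and Dusp1 were at 0.39 (0.519) and -1.0 (0.123). Sult1a1, a sulfotransferase, rose from 43.7 ± 10.9 to 77.3 ± 11 FPKM (SD, n = 5 each, 0.83, SE 0.19, 0.0319) and Ctsz, a lysosomal cathepsin, from 107 ± 6.25 to 165 ± 33.7 (0.61, SE 0.13, 0.0300). These 4 calls ended without Sham library 2, Sham library 5, AngII library 3 or AngII library 5 (adjusted p up to 0.120 for Fkbp5).

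Some lists shifted by small amounts without calls, where 3.17% of all tested genes were called. All 31 cytosolic ribosomal protein genes had positive differences, between 0.16 and 0.55, and all 26 respiratory chain genes negative ones, between -0.51 and -0.06, but limma called 0 in each and 0 had an unadjusted p under 0.05. Without AngII libraries 3, 4 and 5 the medians of 0.40 and -0.19 became -0.09 and 0.43, so their directions rested on those libraries. Cytosolic heat shock genes were negative in 18 of 19 cases with a median of -0.39, 0 calls by limma and 0 higher and 4 lower at an unadjusted p under 0.05. Blood endothelial genes were positive in 20 of 21 cases with a median of 0.42 and 0 calls, 4 being higher at an unadjusted p under 0.05. Nos3, endothelial nitric oxide synthase, was at 16.0 ± 6.77 FPKM in Sham and 20.9 ± 3.77 in AngII (SD, n = 5 each, 0.45, SE 0.24, limma adjusted p = 0.238). Immediate early genes, which respond within minutes to handling as well as to signals, had a median of -0.13 with 0 calls by limma (1 higher and 2 lower at an unadjusted p under 0.05), and Nr4a1 ranged from 35.0 to 183 FPKM within Sham and from 16.0 to 293 within AngII.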

How the data were processed

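Total RNA from mouse aortas was made into libraries with a SMARTer mRNA-Seq kit, per the labels' protocols. The deposited table holds 1 decimal value per gene and library and names no unit. It is treated here as FPKM as the authors computed it, since the values are neither whole numbers nor multiples of a common step, and scaling to gene length is assumed. The genome build is mm10, per the submitters' processing notes, and the aligner, quantifier and annotation are unnamed there.

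Values were taken as log2(FPKM + 1) and genes at 1 or more in at least 5 libraries were kept. One limma-trend model (limma 3.58.1, R 4.3.3) with 1 mean per group was fitted to all 15 libraries with 12 residual degrees of freedom, and AngII minus Sham was tested two-sided with Benjamini-Hochberg adjustment over 12603 genes. Adding 1 understates the change of low genes. Named genes are the called genes with the largest differences, smallest p-values or widest gaps between groups, up to 4 called members per list, the calls kept without AngII libraries 3, 4 and 5, and a list of angiotensin-related genes. The groups and gene lists were chosen with earlier results of these data known. Alternatives changed the added value, the filter, the libraries, the scaling, a replicate block, weights and marker covariates. Promoter windows and coordinates are RefSeq (GRCm38.p6), matched by symbol for 10078 genes. A few genes named by this rule are not reported here.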

Additional observations from a re-analysis of the deposited data

Results flagged for a closer look

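Of 366 groups of 5 libraries examined, 12 (3.28%) held a library whose gap to its nearest neighbour was large against the range of the group, where chance alone gives about 1 in 20. The number after each gene is that gap as a share of the range. Sham library 3 and AngII library 3 were each the outlying one in 4 groups. Sham library 3 was the highest for Cyp51 (0.774) and the lowest for Cntfr (0.72), Prdm16 (0.734) and Ace (0.813). Sham library 5 was lowest for Plac8 (0.804), and Sham library 4 was highest for Ccl2 (0.752) and for the mean of the Schwann cell and neuron list (0.769). AngII library 3 was highest for Spp1 (0.754) and Ccl2 (0.762) and lowest for Herpud1 (0.79) and for the mean of the fatty acid and triglyceride synthesis list (0.726). AngII library 4 was highest for the mean of the skeletal muscle list (0.779).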

How the results depend on the processing

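With all libraries 298 genes were higher and 102 lower. The counts were 122 and 29 with no filter on low values, 30 and 7 with the AngII and Sham libraries only, 259 and 282 after rescaling, 20 and 2 without AngII libraries 3, 4 and 5, 2104 and 717 with array weights, 45 and 12 with the lymphocyte covariate, 53 and 42 with the smooth muscle covariate, and 2 and 0 when limma tested a fold change over 1.5 (321 and 92 at an unadjusted p under 0.05). With 1 library left out the counts ran from 54 to 1378 higher and from 16 to 555 lower, and the cause was not tested. An added value of 0.1 (320 and 114) or a filter at 5 FPKM (238 and 83) moved them less. Same-numbered Sham and AngII libraries had correlations of deviations from -0.414 to 0.102. Such correlations also carry the differences in tissue mixture, so they cannot decide whether a shared number stands for a shared batch. A replicate block gave 72 and 37 calls, 106 of them shared with the fit without a block.

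Over 1385 results of single genes under these settings, 846 kept their side of the threshold, 508 lost it, 12 gained it and 19 reversed; none of the genes that reversed was called. Without AngII libraries 3, 4 and 5 the reversed differences were 0.16 for Ace, -0.0381 for Cmklr1, -0.25 for Ccl2, -0.0558 for Il1b and 1.30 for Nr4a1. With array weights they were -0.39 for Col1a1, -0.45 for Col3a1, -0.23 for Ccl2, -0.0555 for Il1b and 0.11 for Edn1, and with the lymphocyte covariate 0.21 for Ace, -0.0637 for Ccl2 and 0.42 for Nr4a1. With the smooth muscle covariate they were 0.63 for Ace, 0.37 for Eln, 0.43 for Fn1, 0.36 for Edn1 and 0.40 for Thbs1, and after rescaling -0.0108 for Col3a1. With 1 library left out the ranges were -0.0897 to 0.80 for Ccl2, -0.15 to 0.48 for Col1a1, -0.17 to 0.35 for Col3a1, -0.26 to 0.0124 for Edn1, -0.60 to 0.43 for Nr4a1 and -0.48 to 0.26 for Thbs1. The cause was not tested. Depth is unknown, so low genes cannot be weighted by it.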
